A study of Mus musculus with 8 samples.

Results

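The proteasome genes were taken by name: every protein-coding mouse gene whose GENCODE M21 symbol starts with Psm, a letter from a to g and a digit. The rule found 50 genes among the 52551 rows of each count file, and 46 of them had enough counts to be tested. The 8 libraries were made with QuantSeq, which reads the 3' ends of transcripts, from livers of C57BL/6 males aged 6 weeks. Every one carried the PiZ transgene, which makes human alpha-1 antitrypsin (SERPINA1) in its Z form, a protein that misfolds and collects in the endoplasmic reticulum of hepatocytes. The 4 PiZ libraries are of mice that kept Chop, and the 4 PiZ/Chop-/- libraries of mice in which Chop was deleted as well. Chop is the gene Ddit3, which encodes a transcription factor made during endoplasmic reticulum stress. The wild-type group of the design text was not analysed here. The labels do not state which part of Ddit3 was deleted, what promoter drives the transgene, or that the libraries are of separate mice. The spread behind each p-value is thus that between libraries, which may be technical.

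The proteasome is the barrel-shaped protease that degrades proteins tagged with ubiquitin, among them misfolded proteins pulled back out of the endoplasmic reticulum. Its core is built of stacked alpha and beta rings, with the cutting sites inside on 3 of the beta subunits, and a regulatory particle on the end, made of a base with ATPase motors and a lid, binds, unfolds and feeds in the substrate. Interferon-induced beta subunits can replace the usual cutting subunits and form the immunoproteasome, and the activator PA28 can dock in place of the regulatory particle. In many cells the transcription factor NRF1, encoded by Nfe2l1, raises most subunit genes together when proteasome capacity falls short.

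Total counts ran from 1650260 to 3064385 per library, of which 12726 to 27080 fell on the 50 proteasome genes. Ddit3 stood at 85.4 to 191 CPM (normalised counts, relative to the TMM-scaled library size) in PiZ and at 1.72 to 4.19 CPM in PiZ/Chop-/-, so its level followed the label in all 8 libraries. The transgene's own SERPINA1 transcript fell by 1.23 on the log2 scale (SE 0.22, edgeR adjusted p = 0.00873), from 950.2 to 1845 CPM over the PiZ libraries to 554 to 712 CPM over the PiZ/Chop-/- libraries. Leaving out PiZ/Chop-/- library 3 ended that call (adjusted p = 0.0575). Hepatocyte markers were abundant in both groups: 9 of them, led by Ahsg and Alb, summed to 53158 to 69832 CPM in PiZ and 44503 to 57709 CPM in PiZ/Chop-/-. The summed level of 14 macrophage markers was 1129 to 1616 CPM over PiZ libraries and 869 to 1045 CPM over PiZ/Chop-/- libraries. That of 10 endothelial markers was 264 to 355 and 374 to 392 CPM, so neither sum overlapped between the groups. Abundant markers weigh most in these sums, and 0 markers of either list passed the edgeR test. Of the macrophage markers 12 were lower in PiZ/Chop-/-, and of the endothelial markers 3 were. The macrophage markers Ctss (log2 fold change -0.746, edgeR adjusted p = 0.118) and C1qb (-0.524, adjusted p = 0.25) were lower in PiZ/Chop-/- without overlap. The other macrophage markers overlapped between the groups, among them Cd5l, with means of 519.9 CPM (PiZ) and 317 CPM (PiZ/Chop-/-). Sums over 10 stellate markers (364 to 467 and 260.2 to 404 CPM), 7 cholangiocyte markers (39.4 to 55.9 and 34.3 to 62.6 CPM) and 12 lymphocyte markers (13.2 to 17.0 and 8.36 to 13.9 CPM) overlapped, and no marker of any list was at 0 counts in all libraries. All 7 tested stellate markers were lower on average in PiZ/Chop-/-, and none passed the edgeR test. Col1a1 among them did not overlap, at 33.7 to 53.4 CPM in PiZ and 11.2 to 29.8 CPM in PiZ/Chop-/- (edgeR adjusted p = 0.0788). The part of these cell types in the results below was not tested, and in whole liver fewer cells of a type and less RNA per cell cannot be told apart.

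Transcripts of the standing proteasome were slightly less abundant in PiZ/Chop-/-, but no member passed the test by itself. Summed over the 50 genes, the level was 9196, 9141, 8707 and 7655 CPM in PiZ libraries 1 to 4 and 7163, 7351, 6318 and 6988 CPM in PiZ/Chop-/- libraries 1 to 4. The groups did not overlap, with PiZ library 4 the closest to the other group. Without scaling, proteasome genes took 0.833% to 0.906% of all counts in PiZ and 0.63% to 0.709% in PiZ/Chop-/-. Fold changes are log2 values, negative where PiZ/Chop-/- was lower. Of the 46 tested members 38 were below 0 and 8 above, with a median of -0.29, or 18.0% lower. Over all 8669 genes tested 50.2% were below 0 and the median was -0.0016.

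With edgeR's quasi-likelihood test and Benjamini-Hochberg adjustment over all 8669 genes, 0 of the 46 members passed at 0.05, where 1.03% of all genes passed, 0.692% as lower and 0.335% as higher. At an unadjusted p under 0.05, 15 members were lower and 0 higher, against 6.85% and 6.29% of all genes. In 11 members every PiZ/Chop-/- library lay below every PiZ library, and in 1 member, Psma3, every one lay above, where 4.22% and 3.66% of all genes did so. The lowest adjusted p among the members was 0.0788, for Psmb5. With limma-voom 0 members passed. With DESeq2, given all counts but using its own filter, 2 did, Psmb5 (adjusted p = 0.0344) and Psmb4 (adjusted p = 0.0385), both lower. Of the 10343 genes to which DESeq2 gave an adjusted p, 1.1% passed as lower. The same pair passed in edgeR when low counts were not filtered out (adjusted p = 0.0102 and 0.0138), where 0.917% of genes passed as lower.

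**Figure D1:**
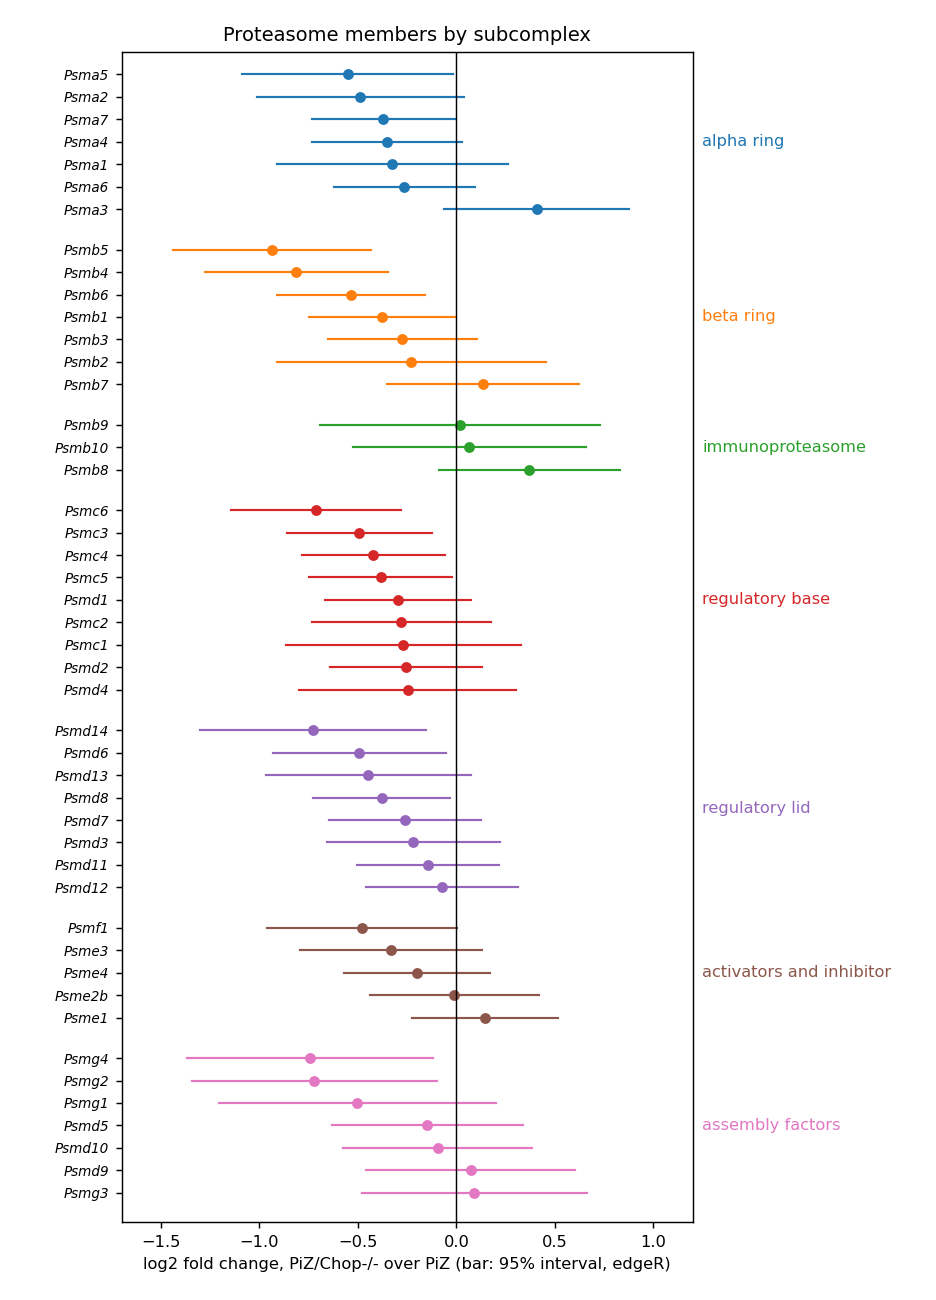
The log2 fold change of each of the 46 tested members (point) with its 95% interval from the edgeR fit (bar), grouped and coloured by subcomplex, with 0 as a vertical line. All 9 base and 8 lid members lie left of 0, and the 3 immunoproteasome members lie right of it with intervals that include 0.

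The alpha ring gates the entrance of the core. Of its 8 genes 7 were tested, 6 were below 0, and the median was -0.35. Psma7, the most abundant of them, stood at 409.6, 421, 396 and 419.5 CPM in PiZ libraries 1 to 4 and at 278, 293, 365 and 336 CPM in PiZ/Chop-/- libraries 1 to 4. The groups did not overlap, and the PiZ libraries lay close together (log2 fold change -0.37, SE 0.17, edgeR adjusted p = 0.368). Psma5 had 37.5, 19.4, 26 and 38.9 CPM in PiZ and 19.0, 21.8, 20.9 and 21 CPM in PiZ/Chop-/- (-0.55, SE 0.25, adjusted p = 0.367). Only PiZ libraries 1, 3 and 4 were above all of the other group, and without PiZ libraries 1 and 4 the value for Psma5 was -0.15 (adjusted p = 0.882). The alpha ring median was then also -0.15. Psma2 (-0.49), Psma4 (-0.35), Psma1 (-0.33) and Psma6 (-0.27) were also below 0, with adjusted p from 0.411 to 0.657. Without PiZ library 4 Psma1 turned to 0.01 and Psma2 went to -0.14, and without PiZ libraries 1 and 4 they were 0.03 and 0.03. Psma3 ran the other way, with 23.4, 18.9, 18.6 and 17.1 CPM in PiZ and 24.6, 24.7, 24.8 and 28.9 CPM in PiZ/Chop-/-. Its groups did not overlap, although PiZ library 1 came close to the other group (0.41, SE 0.22, adjusted p = 0.451). Psma8, a testis form of an alpha subunit, had 0 to 8 counts per library and was not tested.

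The beta ring held the members with the largest differences of the core. All 7 of its genes were tested, 6 were below 0, the median was -0.38, and in 4 of them (Psmb5, Psmb4, Psmb6 and Psmb1) the groups did not overlap. Psmb5, the subunit with the chymotrypsin-like site that the drug bortezomib blocks, stood at 57.2, 53.0, 62.7 and 106 CPM in PiZ and at 32.1, 36.2, 35.7 and 41.5 CPM in PiZ/Chop-/-. That was 1.92-fold lower in PiZ/Chop-/- (log2 fold change -0.94, SE 0.24, 95% interval -1.44 to -0.44, edgeR adjusted p = 0.0788), and PiZ library 4 stood far above the other PiZ libraries. Without that library the value was -0.65 (adjusted p = 0.133). Psmb4, a beta subunit without a cutting site, stood at 303, 286, 272 and 515 CPM in PiZ and at 163, 215, 194 and 211 CPM in PiZ/Chop-/- (-0.81, SE 0.22, adjusted p = 0.102). Here too PiZ library 4 was the high one, and without it the value was -0.535 (adjusted p = 0.151).

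Psmb6, which carries the caspase-like site, stood at 408, 439, 377 and 467 CPM in PiZ and at 312, 320.1, 238 and 295 CPM in PiZ/Chop-/- (-0.54, SE 0.18, adjusted p = 0.201). Its lowest PiZ library was above its highest PiZ/Chop-/- library by more than the SD of either group. Psmb7, which carries the trypsin-like site, did not share this: it had 236, 221, 220.3 and 136 CPM in PiZ and 313, 193, 163 and 223 CPM in PiZ/Chop-/-. The groups overlapped (0.13, SE 0.23, 95% interval -0.35 to 0.62, adjusted p = 0.852), and without PiZ library 4 the value was -0.00015. The differences in response among the 3 catalytic genes were not tested. Psmb1 (-0.38), Psmb3 (-0.27) and Psmb2 (-0.23) had adjusted p of 0.37, 0.548 and 0.807, and Psmb2 turned to 0.23 without PiZ library 4.

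In the base of the regulatory particle all 9 members were below 0, from -0.71 to -0.25, with a median of -0.29. Psmc6, an ATPase of the ring that unfolds substrates, stood at 124, 95.2, 91.0 and 123 CPM in PiZ and at 46.9, 65.5, 71.5 and 79.7 CPM in PiZ/Chop-/-. No library of one group reached the other (log2 fold change -0.71, SE 0.20, 95% interval -1.15 to -0.28, edgeR adjusted p = 0.13). Psmc3, another ATPase of the ring, stood at 493, 511, 445 and 536 CPM in PiZ and at 403, 347, 308 and 352 CPM in PiZ/Chop-/- (-0.49, SE 0.17, adjusted p = 0.238). The ATPases Psmc4 (-0.42) and Psmc5 (-0.38) also had groups that did not overlap, so 4 of the 6 ATPases did, with adjusted p from 0.13 to 0.35. Psmc2 and Psmc1 (-0.28 and -0.27) and the scaffold subunits Psmd1 (-0.29) and Psmd2 (-0.26) overlapped.

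Psmd4, a ubiquitin receptor of the base, had the most counts of any member, with 1259, 1384, 1173 and 532 CPM in PiZ and 1001, 1033, 697 and 932 CPM in PiZ/Chop-/- (-0.25, SE 0.26, adjusted p = 0.735). In 3 PiZ libraries it was above every PiZ/Chop-/- library, and in PiZ library 4 it was below them all. Psmc1 showed the same split, with 689, 761 and 674 CPM in PiZ libraries 1 to 3, 260.1 CPM in PiZ library 4, and 392 to 609.8 CPM in PiZ/Chop-/-. Without PiZ library 4 Psmd4 was -0.46, Psmc1 -0.50 and the median of the base -0.36, and without PiZ library 2 Psmd4 was -0.10 and Psmc1 -0.12.

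All 8 lid members were below 0 as well, from -0.73 to -0.07, with a median of -0.32. Psmd14, the deubiquitinase that cuts the ubiquitin chain off the substrate, stood at 45.5, 45.2, 35.4 and 59.3 CPM in PiZ and at 17.7, 43.7, 23.3 and 27.5 CPM in PiZ/Chop-/- (log2 fold change -0.73, SE 0.27, edgeR adjusted p = 0.265). PiZ/Chop-/- library 2 alone reached into the range of the PiZ libraries, and without it the value was -1.01 (adjusted p = 0.063). Psmd6 stood at 109, 95.7, 89.4 and 81.2 CPM in PiZ and at 47.4, 77.6, 83.4 and 58.7 CPM in PiZ/Chop-/- (-0.49, SE 0.21, adjusted p = 0.332). Its groups met only at PiZ library 4 and PiZ/Chop-/- library 3. Psmd8 (-0.38, adjusted p = 0.341) was the lid member whose groups did not overlap. Psmd13 (-0.45), Psmd7 (-0.26), Psmd3 (-0.22), Psmd11 (-0.14) and Psmd12 (-0.07) followed, with adjusted p from 0.458 to 0.908.

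**Figure D2:**
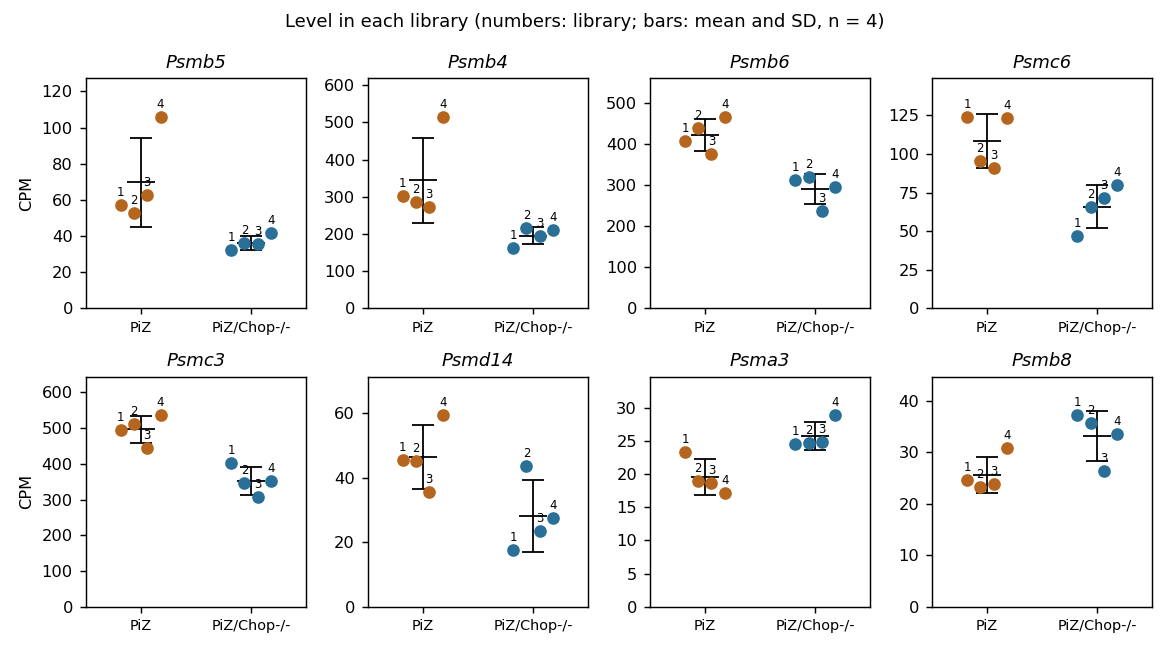
CPM of 8 members in each library (point, numbered by library), with the mean and SD of each group of 4 as bars and a vertical axis from 0 in each panel. Psmb5, Psmb4, Psmb6, Psmc6 and Psmc3 lie lower in every PiZ/Chop-/- library than in any PiZ library, Psmd14 overlaps through PiZ/Chop-/- library 2, and Psma3 and Psmb8 have the higher mean in PiZ/Chop-/-.

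No decrease of the immunoproteasome subunits was seen in PiZ/Chop-/-, but their intervals include values below 0. Of 4 genes 3 were tested, all 3 had values above 0, and the median was 0.07. Psmb8, which takes the place of Psmb5, stood at 24.6, 23.3, 23.8 and 30.8 CPM in PiZ and at 37.2, 35.6, 26.3 and 33.5 CPM in PiZ/Chop-/- (log2 fold change 0.37, SE 0.22, 95% interval -0.09 to 0.83, edgeR adjusted p = 0.492). PiZ library 4 and PiZ/Chop-/- library 3 crossed over, and the other libraries were apart. Psmb9, which takes the place of Psmb6, was the least abundant tested member, at 8.26 to 13.5 CPM in PiZ and 5.46 to 13.5 CPM in PiZ/Chop-/- (0.02, 95% interval -0.69 to 0.73, adjusted p = 0.99). Psmb10, which takes the place of Psmb7, was at 36.0 to 71.4 CPM in PiZ and 31.6 to 66.4 CPM in PiZ/Chop-/- (0.07, 95% interval -0.53 to 0.66, adjusted p = 0.946). With library size as the only scaling, Psmb9 and Psmb10 turned to -0.06 and -0.01. Psmb11, the thymus form, had 0 counts in every library.

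The ratio of each immunoproteasome subunit to the constitutive subunit it replaces was set out per library on the log2 scale. For Psmb8 over Psmb5 it was -1.19, -1.15, -1.36 and -1.75 in PiZ and 0.21, -0.02, -0.43 and -0.30 in PiZ/Chop-/-. In every PiZ library Psmb5 had the more counts, and in PiZ/Chop-/- the ratios lay on both sides of 0. The means differed by 1.23 (higher in 4 of 4 PiZ/Chop-/- libraries than in any PiZ library; exact two-sided permutation p = 0.0286, the smallest that 4 against 4 can give; 0.0857 adjusted over the 3 ratios). The ratio shares the Psmb5 values given above and is no separate evidence on that gene. Psmb9 over Psmb6 differed by 0.51 (-5.25 ± 0.38 in PiZ, -4.74 ± 0.36 in PiZ/Chop-/-; SD, n = 4 each; exact permutation p = 0.114, adjusted 0.171). Psmb10 over Psmb7 differed by -0.08 (-2.07 ± 0.62 and -2.14 ± 0.34; SD, n = 4 each; exact permutation p = 0.886, adjusted 0.886). The ratio of Psmb10 to Psmb7 turned in sign when PiZ library 2, PiZ library 4 or PiZ/Chop-/- library 2 was left out.

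**Figure D3:**
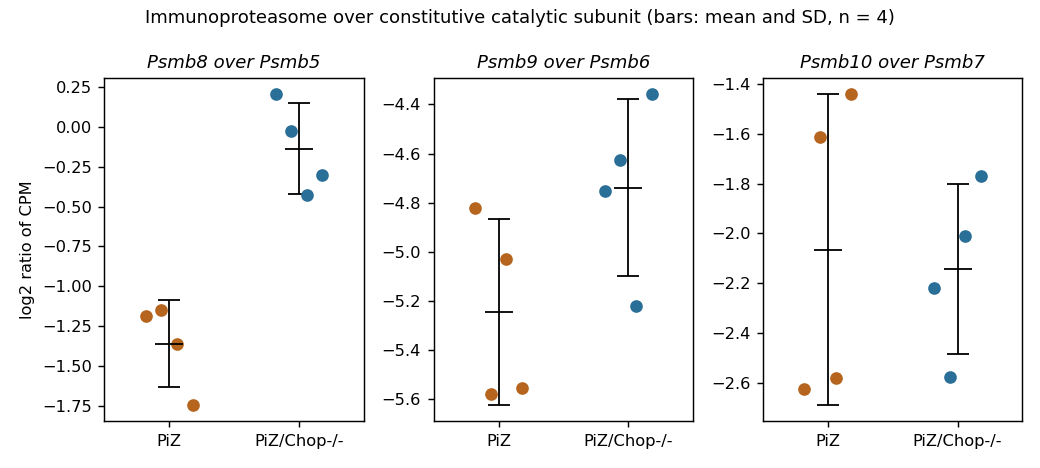
Log2 ratio of CPM of each immunoproteasome subunit to the constitutive subunit it replaces, per library (point), with the mean and SD of each group of 4 as bars; the vertical axes differ between panels. The groups are apart for Psmb8 over Psmb5 (-1.75 to -1.15 against -0.43 to 0.21) and overlap for the other pairs.

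Of the activator genes, Psme1, which encodes the alpha subunit of PA28, stood at 78.7, 100.1, 82.6 and 75.5 CPM in PiZ and at 94.8, 92.5, 84.4 and 101 CPM in PiZ/Chop-/- (log2 fold change 0.15, SE 0.17, 95% interval -0.22 to 0.52, edgeR adjusted p = 0.774). Psme2, which encodes the beta subunit, had only 3 to 17 counts per library and was not tested, while Psme2b, an intronless copy of it, had 73 to 160 counts per library. Of all counts on the pair, 94.1% (921, against 58 on Psme2) were on the copy. The longest coding transcripts of the pair align over 794 columns with 99.4% identity up to the 3' end of Psme2, so which gene the reads came from is uncertain. Psme2b had a value of -0.01 (95% interval -0.44 to 0.42). Psme3, the gamma form of PA28 in the nucleus (-0.33, adjusted p = 0.551), Psme4, the activator PA200 (-0.20, adjusted p = 0.672), and Psmf1, the inhibitor PI31, were lower on average. Psmf1 had 33.2, 49.6, 67.5 and 60.7 CPM in PiZ and 33.9, 39.1, 40.2 and 39.1 CPM in PiZ/Chop-/- (-0.48, SE 0.23, adjusted p = 0.384), and PiZ library 1 lay below all of the other group.

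Of the 7 assembly factors, all tested, 5 were below 0 and the median was -0.15. Psmg4, a chaperone of the alpha ring, stood at 16, 13.6, 14.8 and 26.1 CPM in PiZ and at 12.1, 8.05, 10.9 and 10.7 CPM in PiZ/Chop-/- with no overlap (log2 fold change -0.74, SE 0.29, edgeR adjusted p = 0.296), and -0.475 without PiZ library 4. Psmg2, whose protein pairs with that of Psmg1 in starting the alpha ring, had 21.5, 14.6, 16.7 and 26.6 CPM in PiZ and 14.4, 14.9, 7.94 and 10.7 CPM in PiZ/Chop-/- (-0.72, SE 0.29, adjusted p = 0.312). Psmg1 had -0.50 (adjusted p = 0.552), whereas Psmg3, the partner of Psmg4, had 0.09 (adjusted p = 0.923). The chaperones of the base, Psmd5 (-0.15), Psmd10 (-0.10) and Psmd9 (0.07), had adjusted p from 0.831 to 0.932. Psmc3ip, a meiotic recombination factor that the rule takes in only for its name, had 0 or 1 count per library.

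Divided by role, 29 of 31 tested genes of the alpha ring, beta ring, base and lid were below 0 (median -0.35), and 9 of 15 tested immunoproteasome, activator, inhibitor and assembly genes were (median -0.10). These counts describe the lists and were not tested against each other. A score per library was taken as the median of the members' log2 CPM after each gene's mean over the 8 libraries was subtracted. This gave, for all 46 members, 0.23, 0.15, 0.14 and 0.17 in PiZ and -0.06, -0.11, -0.22 and -0.12 in PiZ/Chop-/-, so the 2 groups were apart. Over all genes tested it lay between 0.0019 and 0.03 in every library. The base scored 0.20 to 0.27 in PiZ and -0.25 to -0.12 in PiZ/Chop-/-, and the beta ring 0.10 to 0.42 and -0.39 to -0.12. The alpha ring, the lid and the assembly factors overlapped, the alpha ring through PiZ library 2 at -0.23. The immunoproteasome scored -0.27 to 0.05 in PiZ and -0.25 to 0.39 in PiZ/Chop-/-.

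**Figure D4:**
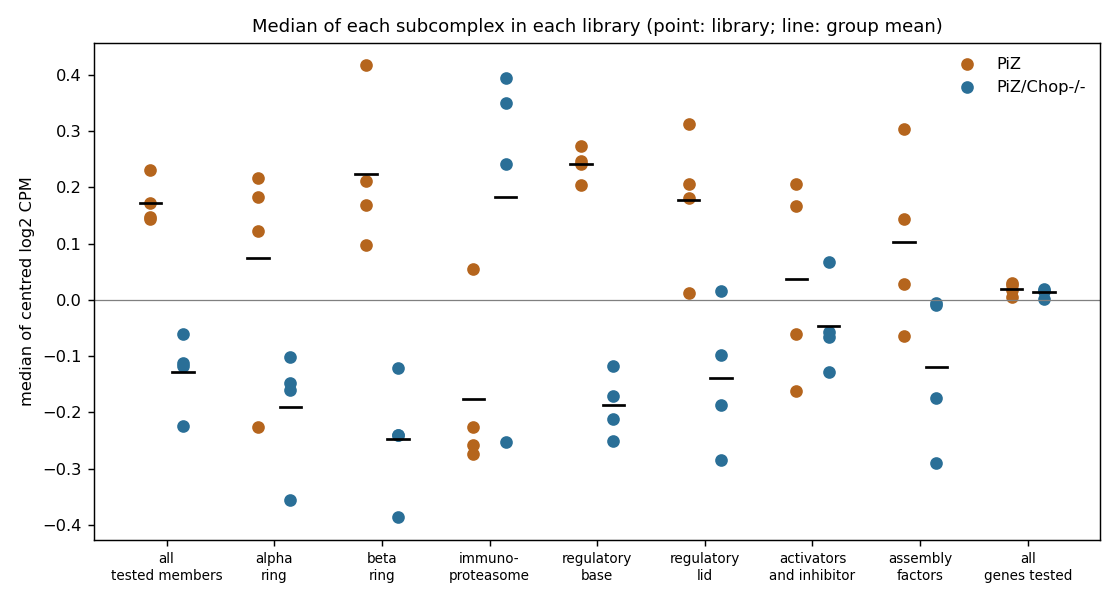
Median over the tested members of each subcomplex of log2 CPM, centred per gene over the 8 libraries, in each library (point), with the mean of each group as a short line. The base and beta ring separate the groups, the immunoproteasome runs the other way with PiZ/Chop-/- library 3 among the PiZ libraries, and the median of all genes stays near 0.

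Members did not move as a block within a group. PiZ library 4 was the highest of the 8 libraries for 15 members and the lowest for 10. Those highest there included Psmb4, Psmb5, Psmb6, Psma1 and Psma2, and those lowest there included Psmd4, Psmc1, Psmd13, Psmd3 and Psmb7. This library also had the lowest mean correlation with the rest of its group over all genes (0.914, against 0.931 to 0.951 for the others). In all, 40 of 46 members had their highest value in a PiZ library and 31 their lowest in a PiZ/Chop-/- library (87.0% and 67.4%, against 52.3% and 46.8% of all genes tested). Levels spanned 96.4-fold in counts, from Psmd4 at 1001 CPM over the 8 libraries to Psmb9, although the protein particle holds most subunits in equal number. The kit takes reads from 3' ends, so CPM does not grow with transcript length, but how well each 3' end was caught is unknown.

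The members lie scattered over the genome, and 0 of the 50 lie on chromosome 10, which holds Ddit3. Coordinates are those of mm10 in GENCODE M21. Psmb5 lies on chromosome 14 at 54614119 to 54618022 on the minus strand, with Psmb11 starting 3411 bases further on. Psmb8 at 34197721 to 34201454 and Psmb9 at 34181987 to 34187764 lie on chromosome 17 with 9957 bases between them, and Psme1 and Psme2 lie 5912 bases apart on chromosome 14. Psmb4 lies on chromosome 3 at 94884093 to 94886961, Psmb6 on chromosome 11 at 70525367 to 70527858 and Psmc6 on chromosome 14 at 45329788 to 45349705.

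Promoter windows from RefSeq (GRCm38.p6, the build mm10) were found for 42 of the 50 members, 45 windows in all, and were searched on both strands over the 250 bases before the start. The antioxidant response element TGACNNNGC, the kind of site that NRF1 and NRF2 bind, matched in 5 of 45 windows (11.1%), against 10.2% of all 32851 windows and 12.1% of those of tested genes. The 5 are shown because Psmb5, Psmb6 and Psmc6 were among the members with the largest differences, while Psmd12 and Psmd9 lay near 0. A window of Psmb8 is added, with a match to the GAS motif TTCNNNGAA, found in promoters of genes that respond to interferon gamma. Each sequence runs 5′ to 3′ on the gene's own strand, its last base lies just before the start, and capitals mark the match.
Psmb5: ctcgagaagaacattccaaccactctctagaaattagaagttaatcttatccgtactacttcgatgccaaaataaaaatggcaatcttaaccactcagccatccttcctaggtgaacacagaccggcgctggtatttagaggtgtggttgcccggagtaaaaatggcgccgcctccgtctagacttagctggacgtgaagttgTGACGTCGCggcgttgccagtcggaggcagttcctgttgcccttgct
Psmb6: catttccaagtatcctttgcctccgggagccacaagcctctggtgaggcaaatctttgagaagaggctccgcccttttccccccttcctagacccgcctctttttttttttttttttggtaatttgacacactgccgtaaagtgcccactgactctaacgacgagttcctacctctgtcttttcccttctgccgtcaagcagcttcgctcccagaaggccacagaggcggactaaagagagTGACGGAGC
Psmc6: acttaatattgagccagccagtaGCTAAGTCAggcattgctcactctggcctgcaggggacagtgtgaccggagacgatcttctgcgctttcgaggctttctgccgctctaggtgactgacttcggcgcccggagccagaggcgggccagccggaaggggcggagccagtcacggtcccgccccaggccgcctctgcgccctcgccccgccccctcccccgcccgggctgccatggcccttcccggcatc
Psmd12: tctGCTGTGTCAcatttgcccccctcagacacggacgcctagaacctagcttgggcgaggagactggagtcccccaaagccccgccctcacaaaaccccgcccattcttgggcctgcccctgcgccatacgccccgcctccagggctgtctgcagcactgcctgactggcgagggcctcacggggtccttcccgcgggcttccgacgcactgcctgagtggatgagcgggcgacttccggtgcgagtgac
Psmd9: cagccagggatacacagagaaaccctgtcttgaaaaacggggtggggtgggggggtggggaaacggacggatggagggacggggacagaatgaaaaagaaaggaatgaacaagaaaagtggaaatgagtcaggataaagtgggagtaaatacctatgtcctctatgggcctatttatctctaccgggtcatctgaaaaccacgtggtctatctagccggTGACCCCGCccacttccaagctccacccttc
Psmb8: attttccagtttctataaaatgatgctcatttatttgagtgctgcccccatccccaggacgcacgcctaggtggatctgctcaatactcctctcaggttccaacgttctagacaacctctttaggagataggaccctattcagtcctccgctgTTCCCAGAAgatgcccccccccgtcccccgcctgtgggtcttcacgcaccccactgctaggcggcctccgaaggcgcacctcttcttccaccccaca

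These windows are chr14:54617996-54618245 (minus strand) for Psmb5, chr11:70525107-70525356 (plus) for Psmb6 and chr14:45329574-45329823 (plus) for Psmc6. They are chr11:107479278-107479527 (plus) for Psmd12, chr5:123227940-123228189 (plus) for Psmd9 and chr17:34197945-34198194 (plus) for Psmb8. The RefSeq start used here lies 10 bases before the GENCODE gene for Psmb6, and 27, 36 and 44 bases inside it for Psmb5, Psmc6 and Psmd12. For Psmb8 it lies 474 bases inside, and for Psmd9 58777 bases inside, so the Psmd9 window is not at the 5′ end of the GENCODE gene. The matches end 1, 23 and 39 bases before the RefSeq start in Psmb6, Psmd9 and Psmb5, and begin 227 and 247 bases before it in Psmc6 and Psmd12. The C/EBP-ATF response element TGATGNAA, of the kind used by CHOP and ATF4 together, matched in 1 window, that of Psmd13 (2.22%, against 1.87% for tested genes), and the shorter TGCAAT, which can overlap it, in those of Psma1, Psmc5 and Psmd1 (6.67% against 5.01%). The GAS motif matched in 2 windows, those of Psmb8 and Psmg1 (4.44% against 5.81%). The interferon-stimulated response element matched in 3, those of Psmb3, Psmd4 and Psmd9 (6.67% against 2.52%), and the heat shock element in 0. The CCAAT box matched in 15 (33.3% against 35.2%), and the ETS motif CCGGAAG in 14 (31.1% against 14.1%), among them Psmc6, Psmd12, Psmd2 and Psmd6. A match says only that these letters are in the window.

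Other genes of the pathway came from lists that do not follow the symbol rule. Of 15 tested partners of the proteasome 11 were below 0, the median was -0.21, and 0 passed in either direction. Pomp, the chaperone that completes the core, stood at 1196, 858, 843 and 1138 CPM in PiZ and at 954, 736, 786 and 756 CPM in PiZ/Chop-/- (log2 fold change -0.32, SE 0.19, edgeR adjusted p = 0.512). Only PiZ libraries 1 and 4 were above all PiZ/Chop-/- libraries. Adrm1, a ubiquitin receptor of the base (-0.35, adjusted p = 0.7, and -0.12 without PiZ library 2), Uchl5, a deubiquitinase that binds it (-0.46, adjusted p = 0.506), and Txnl1, a thioredoxin-like protein of the regulatory particle (-0.42, adjusted p = 0.426), were on the same side. Nfe2l1 had 77.5, 59.8, 69.5 and 82.6 CPM in PiZ and 66.4, 71.8, 56.1 and 55.4 CPM in PiZ/Chop-/-, which overlapped (-0.21, SE 0.19, edgeR adjusted p = 0.679). Nfe2l2, which encodes NRF2, was at 27.7, 35.9, 43.4 and 31.3 CPM in PiZ and at 33.0, 66.1, 45.7 and 45.6 CPM in PiZ/Chop-/- (0.45, adjusted p = 0.442). Nfe2l1 was -0.12 without PiZ library 4, and Nfe2l2 0.25 without PiZ/Chop-/- library 2.

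Upstream of the proteasome, of 14 tested genes for ubiquitin, its activation and its shuttles 12 were below 0, with a median of -0.16, and 0 passed in either direction. Nploc4 and Ufd1, which together bring ubiquitinated proteins to the segregase VCP, had -0.45 (adjusted p = 0.376) and -0.38 (adjusted p = 0.468). Ubb, one of the polyubiquitin genes, had -0.28 (adjusted p = 0.571), and Vcp itself had -0.13 (adjusted p = 0.839). Rps27a had too few counts to be tested.

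Interferon and MHC class I genes, which are induced along with the immunoproteasome, were mostly above 0. Of 21 tested genes 17 were above 0, the median was 0.14, and 0 passed in either direction with edgeR as filtered. Summed, the list ran from 3706 to 4345 CPM over PiZ libraries and from 4398 to 5078 over PiZ/Chop-/- libraries, without overlap. Abundant genes weigh most in this sum, so it does not show a rise across the list. B2m had means of 1899 CPM (PiZ) and 2262 CPM (PiZ/Chop-/-), and H2-K1 893 and 1009 CPM, but both genes overlapped between the groups. Iigp1, an interferon-induced GTPase, stood at 116, 242, 205 and 211 CPM in PiZ and at 315, 366, 404 and 367 CPM in PiZ/Chop-/- (log2 fold change 0.91, SE 0.22, edgeR adjusted p = 0.0616). Irf2, a factor that binds interferon elements, stood at 35.1, 32.5, 39.5 and 27.5 CPM in PiZ and at 59.9, 46.6, 79.4 and 55.4 CPM in PiZ/Chop-/- (0.84, SE 0.22, adjusted p = 0.086). Both had every PiZ/Chop-/- library above every PiZ library, and DESeq2 called both (adjusted p = 0.00868 and 0.0344). So did edgeR with low counts left in (adjusted p = 0.0022 and 0.0297). Iigp1 also passed without PiZ library 4 (adjusted p = 0.0372) and with the replicate number as a block. Irf2 also passed without PiZ/Chop-/- library 2 (adjusted p = 0.0423). In other alternative fits neither passed, and the adjusted p rose as high as 0.181 for Iigp1 and 0.281 for Irf2. The groups overlapped for Irf1, a known inducer of the immunoproteasome (-0.28, adjusted p = 0.7). The peptide transporter genes Tap1 and Tap2, neighbours of Psmb8 and Psmb9 in the MHC, had 0.20 (adjusted p = 0.792) and 1.15 (adjusted p = 0.369), the latter at 0.949 to 14.9 CPM. B2m, the light chain of MHC class I, had 0.25 (adjusted p = 0.623).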

How the data were processed

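RNA was measured in 8 liver libraries, 4 PiZ and 4 PiZ/Chop-/-, grouped and numbered by their titles. Each deposited file gives whole-number counts for every gene, raw per the file headers. Total RNA was made into QuantSeq 3' libraries read from one end over 75 bases, per the labels' protocols, and the submitters' processing notes name STAR, HTSeq and mm10. Tool versions, annotation, strandedness, multi-mapping and PCR duplicates: not given in the sources used here. Counts therefore bound counting error only. Of 52550 mouse gene IDs, 52403 were found in GENCODE M21, which gave symbols and mm10 positions.

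Counts were tested with edgeR 4.0.16 (R 4.3.3) after filterByExpr on the groups, with a minimum count of 10, TMM scaling, a robust quasi-likelihood fit of all 8669 genes kept, no covariate, and Benjamini-Hochberg adjustment over all of them at 0.05. The SE is the log2 fold change over the square root of F, and 95% intervals use the fit's degrees of freedom. Log2 CPM uses a prior count of 2. Ratios had an exact two-sided permutation test over the 70 assignments of 4 of 8 libraries. The fit was tested on simulated counts. Alternatives were scaling by RLE, by upper quartile or by library size alone, DESeq2 1.42.0, limma-voom (limma 3.58.1), no filter or a 5 CPM filter, a non-robust fit, a replicate block, each library left out, and PiZ libraries 1 and 4 left out together.

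The members and lists were chosen with earlier results of these data known. The rule for named genes took Ddit3 and SERPINA1; members past the threshold; the 2 of lowest p in each subcomplex; Psmb5 to Psmb10, Psme1 and Psme2; members that were not tested; in each other list those past the threshold and 3 of lowest p; and Nfe2l1, Nfe2l2, Pomp, Adrm1, Vcp, Tap1, Irf1 and B2m; 1 further gene is not reported here. All other genes were named after their values were seen.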

Additional observations from a re-analysis of the deposited data

Results flagged for a closer look

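Among 78 groups of 4 libraries looked at, which are the genes and ratios named by the rule in each genotype, 3 had a library far from the others. In these its gap to the nearest library was above the 95% critical value of Dixon's test, taken as a share of the whole range of log2 CPM (prior count 2) or of the log2 ratio. Chance gives about 1 in 20 such groups. Psmb4 in PiZ library 4 was high at 515 CPM, against 272 to 303 CPM in the other PiZ libraries (0.833 of the range). Psmb7 in the same library was low at 136 CPM, against 220.3 to 236 CPM (0.874). Psmf1 in PiZ/Chop-/- library 1 was low at 33.9 CPM, against 39.1 to 40.2 CPM (0.833).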

How the results depend on the processing

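No proteasome gene passed in the main edgeR fit or in any fit with a library left out. With no filter on low counts and with DESeq2, 2 passed in each, Psmb4 and Psmb5, and the number of all genes called went from 89 to 357 and 208. With libraries left out one at a time it ran from 46 to 169. The member median stayed below 0 under every alternative, at -0.36 with library size only (where the median of all genes was -0.077) and from -0.33 to -0.27 with a library left out. Same-numbered libraries did not deviate together (correlations -0.0513 to 0.049), so the numbers pair nothing known. With the replicate block 76 genes and 0 members were called, the member median was -0.28, the lowest member adjusted p was 0.0889 (Psmb5), and Iigp1 had an adjusted p of 0.0485.

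Several values turned in sign. Psma1 and Psmb2 did so without PiZ library 4 (0.0089 and 0.23), and Psma1, Psma2 and Psmb2 without PiZ libraries 1 and 4 (0.034, 0.028 and 0.11). Psmd9, Psmd12, Psmg3 and Psme2b, whose values lay near 0, did so in at least 1 fit each. Psmb9 was -0.058 with library size only, -0.024 with limma-voom, -0.028 with the replicate block, and ran from -0.13 to 0.23 with a library left out. Psmb10 was -0.00801 with library size only, as was the immunoproteasome median, and -0.066 without PiZ libraries 1 and 4. With a library left out, Psmb10 ran from -0.092 to 0.31 and that median from -0.071 to 0.31. Psmb7 ran from -0.072 to 0.26 with a library left out, and Irf1 was 0.073 without PiZ libraries 1 and 4. The log2 ratio difference ran from 1.1 to 1.32 for Psmb8 to Psmb5, from 0.38 to 0.67 for Psmb9 to Psmb6 and from -0.26 to 0.13 for Psmb10 to Psmb7. With 4 against 3 the exact p cannot go below 0.0571. The cause of these shifts was not tested.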
